A study of Mus musculus with 6 samples.

Results

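ATP-binding cassette (ABC) transporters were examined in salivary glands of mouse embryos that had been left untreated or exposed to TGF-β1. The members were the genes whose symbol in the platform annotation names subfamily A, B, C, D or G. They numbered 44 of the 19505 genes compared: 16 in subfamily A, 9 in B, 10 in C, 3 in D and 6 in G, and each had 1 probe set. Glands were collected at an embryonic stage labelled T13 and kept in culture for 72 hours, with nothing added (controls 1 to 3) or with TGF-β1 (TGF-β1 1 to 3). Each of the 6 glands or gland pools gave 1 Affymetrix array. The strain, the kind of salivary gland, the dose of TGF-β1 and whether glands were pooled are not stated in the labels. Nor is it stated that replicates came from separate animals or cultures, so p-values measure the spread among these 6 samples alone, and that spread may be technical.

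ABC transporters are membrane proteins that bind and split ATP in a pair of nucleotide-binding domains and use it to carry a substrate across a membrane. Subfamily A moves mainly lipids. Subfamily B holds the P-glycoproteins, which expel drugs, together with bile, lysosomal and mitochondrial transporters. Subfamily C exports organic anions and conjugates and includes the sulfonylurea receptors of potassium channels. Subfamily D serves peroxisomes and lysosomes, and subfamily G carries sterols and drugs. In epithelia, several of them limit what enters the tissue or its secretions.

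Control 3 stood apart from the other arrays, which touches every value that follows. Correlations of control 3 with the rest, over all genes, were 0.550 to 0.601. The 4 arrays other than control 3 and TGF-β1 3 reached 0.974 to 0.990 among themselves. Values of control 3 were compressed, with an interquartile range of 2.05 (log2) where the other 5 arrays had 3.17 to 3.26. Control 3 was the highest of the 6 arrays for 29 of the 44 transporters (65.9%; 51.9% of all genes) and the lowest for 5 (11.4%; 32.4% of all genes). Each array therefore entered the limma fit with an estimated weight. The weights were 1.65, 4.52 and 0.0338 for controls 1 to 3 and 4.29, 2.33 and 0.398 for TGF-β1 1 to 3. A gene passed at a Benjamini-Hochberg adjusted p under 0.05 over all 19505 genes. Differences are TGF-β1 minus control on the log2 scale.

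A few lipid and drug transporters were lower in TGF-β1 glands in the array-weighted fit. Of the 44 genes, 7 fell, 1 rose and 36 did not pass with array weights. Abca6 fell by 2.47 ± 0.17 (SE), a 5.56-fold difference and the largest among the members with array weights. The others that fell were the peroxisomal transporter Abcd2, the P-glycoproteins Abcb1a and Abcb1b, the lipid transporters Abca12 and Abca1 and the drug exporter Abcg2, with differences of -1.28 to -1.01. Abca3, a phospholipid transporter, rose by 0.76 ± 0.20. The 8 calls made up 18.2% of the members. Over all genes 6.88% passed, 3.45% as higher and 3.44% as lower. The median difference was 0.02 over the 44 members and 0.01 over all genes. With equal weights on the 6 arrays it was -0.38 over the members, 38 of which were negative, and -0.14 over all genes, and 16 of those 38 were positive once control 3 was left out. The 36 genes that did not pass differed by -0.41 to 0.50, and 5 of them had an unadjusted p under 0.05, which made 13 of the 44 members in all (20.5% of all genes).

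These calls depended on how the arrays were weighted. With control 3 and TGF-β1 3 left out and no weights (2 arrays against 2), Abca6, Abca1, Abca12, Abcd2 and Abcg2 passed as lower, 5 of 44, where 2.59% of all genes passed (1.14% higher, 1.45% lower). Those 5 are 62.5% of the 8 weighted calls. With equal weights on all 6 arrays, limma passed 0 of the 44 members and 0 genes in all, with 2 members (Abca6 and Abca12) and 389 genes (1.99%) at an unadjusted p under 0.05. Left out in turn with weights estimated again, control 1, control 2, TGF-β1 1 and TGF-β1 2 each reduced the members passed to 0, where 0 genes (both controls), 0.041% and 0.0615% of all genes passed. Where 2 arrays of a group remained, their estimated weights were equal. Control 3 thus weighed as much as control 2 without control 1 (0.150 each) and as control 1 without control 2 (0.145 each). TGF-β1 3 weighed as much as TGF-β1 2 without TGF-β1 1, and as TGF-β1 1 without TGF-β1 2. The loss of calls therefore cannot be laid to the left-out array alone. Leaving out control 3 or TGF-β1 3 left 4 members each, against 2.79% and 1.92% of all genes. The weights themselves moved. Without TGF-β1 1, TGF-β1 2 or TGF-β1 3, control 1 carried most of the controls' weight (10.41, 9.173 and 6.896). Control 2 was then weighted below control 3 (0.0544 against 0.1609, 0.0753 against 0.1465 and 0.0118 against 0.116). A shift in such a fit cannot be laid to the left-out TGF-β1 array alone. Quantile normalization left 0 higher and 5 lower members (2.49% of all genes, 1.24% higher and 1.26% lower). Median centring left 0 and 4 (1.45%, 0.677% higher and 0.774% lower). Weights estimated gene by gene and probe sets tested one by one left 5 members each (4.48% and 2.36%), the mean of probe sets 8 (7.29%), a trended and robust prior 7 (7.45%), and a replicate block with weights 8 (12.8%). Without the dimmest genes by mean value (13004 genes kept), 13 of the 25 members kept passed, where 33.5% of all genes did. The weights of controls 1 to 3 were then 0.85, 17.15 and 0.0257, so control 2 stood for most of its group. At an adjusted p under 0.01 there were 5 members (2.76%) and under 0.1 there were 9 (10.9%).

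**Figure D1:**
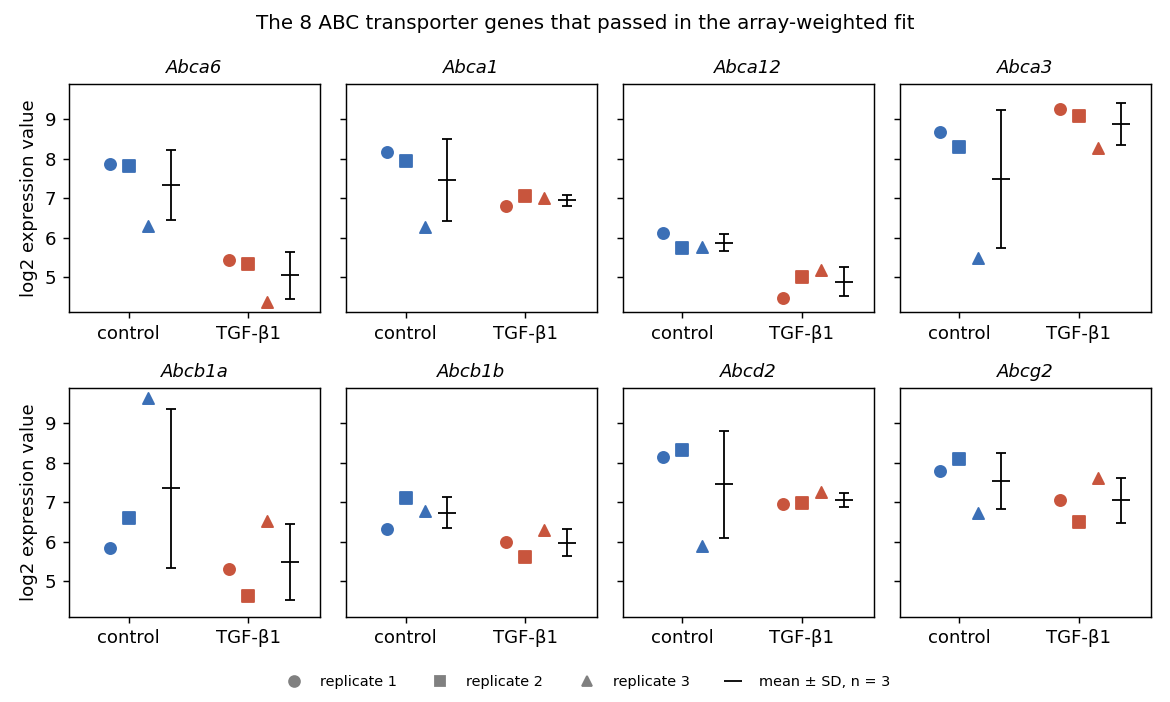
Log2 expression values (vertical axis) of the 8 genes that passed in the array-weighted fit, for controls and TGF-β1 glands (horizontal axis); each symbol is 1 array and the bar is the mean ± SD of 3 arrays. Abca6, Abca12 and Abcb1b do not overlap between the groups, and control 3 (triangle) lies at 5.49 to 6.73 for Abca1, Abca3, Abcd2, Abcg2 and Abca6 but at 9.63 for Abcb1a.

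Subfamily A held 4 of the calls, 3 lower and 1 higher among 16 genes, and its median difference was 0.10 (-0.40 with equal weights, -0.43 without control 1 and -0.35 without control 2). Abca6 (Entrez gene 76184) belongs to a group of A transporters tied to lipid handling. It was at 7.86, 7.81 and 6.30 in controls 1 to 3 and at 5.44, 5.32 and 4.37 in TGF-β1 1 to 3. All 3 TGF-β1 arrays lay below all 3 controls. The group means were 7.32 ± 0.88 and 5.04 ± 0.58 (SD, n = 3 each), and the weighted adjusted p by limma was 8.69e-05. Without control 3 and TGF-β1 3 the gene fell by 2.45 ± 0.14 (adjusted p by limma 0.00472). Its difference was the lowest of all 19505 genes in the fit with equal weights (-2.28, adjusted p 0.776) and the 10th lowest with array weights. With 1 array left out the difference ran from -2.99 (without TGF-β1 1) to -1.72 (without control 1) and -1.74 (without control 2). TGF-β1 3 had a value under its array's lower quartile (5.13). The table has no background measure, so how far Abca6 fell is uncertain where a gland held little or no transcript.

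Abca6 lies in a row of 5 adjacent subfamily A genes on mouse chromosome 11, in the order Abca8b, Abca8a, Abca9, Abca6 and Abca5. None of the other 4 passed. Abca9 was at 4.69, 4.67 and 5.63 in the controls and 5.35, 4.81 and 5.47 in the TGF-β1 arrays, a weighted difference of 0.50 ± 0.18 (adjusted p = 0.125, limma). Abca8a was at 4.88, 4.89 and 5.75 against 5.24, 5.01 and 5.84, with a difference of 0.31 ± 0.16. Both had higher values in each TGF-β1 array than in controls 1 and 2, but control 3 overlapped them. Abca8b, whose controls 1 and 2 lay far apart at 5.18 and 6.26, differed by -0.41 ± 0.25, and Abca5 by -0.21 ± 0.15 with values of 3.84 to 4.49, under the lower quartile of each array. The difference between Abca6 and its neighbours was not tested. The files do not say whether probe sets of such related genes share sequence.

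**Figure D2:**
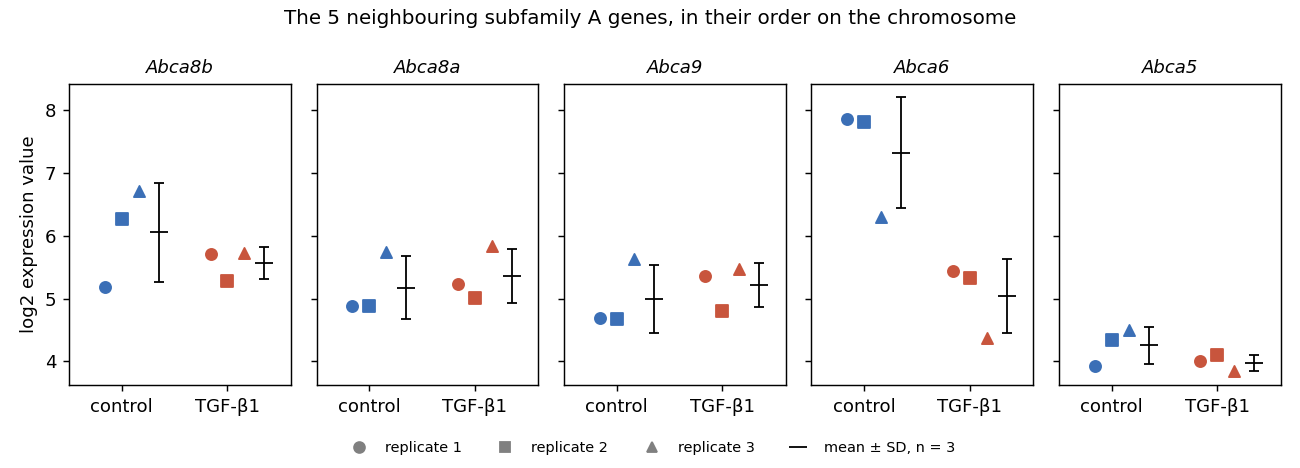
Log2 expression values (vertical axis) of the 5 adjacent subfamily A genes, in chromosomal order, for controls and TGF-β1 glands; each symbol is 1 array and the bar is the mean ± SD of 3 arrays. Abca6 falls from 6.30 to 7.86 in the controls to 4.37 to 5.44 in the TGF-β1 arrays, and the groups overlap for the other 4 genes.

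Abca1 (Entrez gene 11303) hands cellular cholesterol and phospholipid to apolipoprotein A-I, the first step in forming high-density lipoprotein. It was at 8.16, 7.93 and 6.26 in the controls and at 6.79, 7.06 and 6.995 in the TGF-β1 arrays. The TGF-β1 arrays lay close together, below controls 1 and 2 and above control 3. With array weights it fell by 1.09 ± 0.16 (adjusted p by limma 0.00223), and without control 3 and TGF-β1 3 by 1.12 ± 0.17 (adjusted p by limma 0.0274). Equal weights gave -0.50, and the weighted difference was -0.20 without control 1 and -0.32 without control 2. Abca12 (Entrez gene 74591), which loads glucosylceramides into the lamellar granules of keratinocytes and is lost in harlequin ichthyosis, was at 6.11, 5.74 and 5.77 in the controls and at 4.46, 5.01 and 5.17 in the TGF-β1 arrays. Here control 3 lay beside control 2, and the groups did not overlap. TGF-β1 1 and TGF-β1 2 had values under their arrays' lower quartiles (5.15 and 5.11). As for Abca6, how far Abca12 fell is therefore uncertain. It fell by 1.15 ± 0.19 with array weights (adjusted p by limma 0.00458), by 1.19 ± 0.23 without control 3 and TGF-β1 3 (adjusted p by limma 0.0466), and differed by -0.99 with equal weights (unadjusted p = 0.0211, limma). With 1 array left out it ran from -1.37 to -1.01.

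The sequences upstream of both genes are shown as those of the subfamily A genes that passed as lower in both fits and had an entry; Abca6 and Abcd2 were among the 10 members with none, and 6 of the 8 called genes had one. They are the 250 bases before the annotated start in RefSeq (GRCm38.p6), written in the direction of the gene. Capitals mark matches on either strand to CAGAC (the short Smad box), CACGTG (E-box), GGGCGG (GC box), TATAAA and CCAAT. Abca1 is from the minus strand at chr4:53159896-53160145 and Abca12 from the minus strand at chr1:71414911-71415160.
Abca1: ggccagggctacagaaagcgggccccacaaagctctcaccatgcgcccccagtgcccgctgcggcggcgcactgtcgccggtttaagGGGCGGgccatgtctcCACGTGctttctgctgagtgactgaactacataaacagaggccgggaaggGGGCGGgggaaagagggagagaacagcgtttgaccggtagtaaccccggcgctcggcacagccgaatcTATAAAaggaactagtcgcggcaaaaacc
Abca12: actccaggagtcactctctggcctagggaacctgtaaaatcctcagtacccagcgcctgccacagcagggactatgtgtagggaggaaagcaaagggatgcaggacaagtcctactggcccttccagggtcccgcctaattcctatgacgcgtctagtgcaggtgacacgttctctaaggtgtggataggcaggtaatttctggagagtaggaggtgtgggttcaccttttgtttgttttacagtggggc

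The Abca1 window held 2 GC boxes, 1 E-box and 1 TATAAA, which began 29 bases before the start; the matches did not overlap. The Abca12 window held none of the 5 motifs. Of all 32851 windows of this length in the table, 42.2% held CAGAC, 6.02% CACGTG, 32.7% GGGCGG, 12.4% TATAAA and 33.8% CCAAT. The table held 40 windows for 34 of the 44 transporters, and of these 11 held CAGAC, 4 CACGTG, 16 GGGCGG, 5 TATAAA and 11 CCAAT.

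Abca3 (Entrez gene 27410), which fills the lamellar bodies of surfactant-secreting lung cells with phospholipid, was the 1 gene that rose. It was at 8.67, 8.30 and 5.49 in the controls and at 9.26, 9.08 and 8.26 in the TGF-β1 arrays. TGF-β1 1 and 2 lay above controls 1 and 2, while TGF-β1 3 lay just below control 2. The rise with array weights was 0.76 ± 0.20 (adjusted p by limma 0.0404). Without control 3 and TGF-β1 3 the difference was 0.69 ± 0.18 and did not pass (adjusted p by limma 0.0993). Its size moved with the arrays used and their weights. It was 0.0569 without TGF-β1 1, 0.15 without TGF-β1 2, 2.25 without control 1, 2.07 without control 2 and 1.38 with equal weights. In the fits without TGF-β1 1 or TGF-β1 2 the controls rested mostly on control 1. The 12 other genes of the subfamily did not pass. Among them Abca2, a lysosomal lipid transporter of myelinating cells, differed by 0.40 ± 0.20, Abca4, the retinoid transporter of photoreceptors, by 0.36 ± 0.20, and Abca7, which handles phospholipids in phagocytes, by -0.01 ± 0.17. Equal weights turned the sign for Abca2 (-0.48) and Abca4 (-0.23), whose values in control 3 (7.89 and 7.39) were the highest of the 6 arrays. Abca13, Abca14, Abca15, Abca16 and Abca17 stayed under the lower quartile in each array other than control 3.

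Subfamily B held 2 calls among 9 genes, both lower, with a median difference of -0.01 (-0.44 with equal weights, -0.67 without control 1 and -0.64 without control 2). Mouse P-glycoprotein is encoded by a tandem pair, Abcb1a (Entrez gene 18671) and Abcb1b (Entrez gene 18669), and pumps many drugs and lipophilic compounds out of cells. Abcb1b was at 6.33, 7.11 and 6.78 in the controls and at 5.99, 5.63 and 6.31 in the TGF-β1 arrays. The groups did not overlap, though TGF-β1 3 came close to control 1. Abcb1b fell by 1.01 ± 0.21 (adjusted p by limma 0.0142) and differed by -0.91 ± 0.27 without control 3 and TGF-β1 3 (adjusted p by limma 0.142). The weighted difference was -0.19 without TGF-β1 2, -0.37 without TGF-β1 1, -0.53 without TGF-β1 3 and -0.67 without control 2. Control 1, the lowest control for both genes of the pair, carried most of the controls' weight in the fits without a TGF-β1 array. Abcb1a was at 5.83, 6.60 and 9.63 in the controls and at 5.30, 4.63 and 6.52 in the TGF-β1 arrays. Control 3 exceeded every other array by over 3 log2 units, and TGF-β1 3 lay between controls 1 and 2. TGF-β1 2 had a value under its array's lower quartile (5.11). Abcb1a fell by 1.26 ± 0.29 (adjusted p by limma 0.0238), differed by -1.25 ± 0.30 without control 3 and TGF-β1 3 (adjusted p by limma 0.0877), and by 0.015 when TGF-β1 2 was left out, -0.32 without TGF-β1 1, -2.97 without control 1 and -2.59 without control 2. The genes are close paralogues, and the files do not say whether their probe sets tell them apart.

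The windows upstream of this tandem pair are shown because both genes passed as lower with array weights, though not in most other fits. The sequences before their annotated starts are unlike in base composition, with 40.4% G and C for Abcb1a and 52.8% for Abcb1b. The median over all windows was 52.4%. Whether base composition bears on the difference of either gene was not tested. Capitals have the same meaning as for Abca1. Abcb1a is from the plus strand at chr5:8566841-8567090 and Abcb1b from the plus strand at chr5:8797897-8798146 (RefSeq, GRCm38.p6).
Abcb1a: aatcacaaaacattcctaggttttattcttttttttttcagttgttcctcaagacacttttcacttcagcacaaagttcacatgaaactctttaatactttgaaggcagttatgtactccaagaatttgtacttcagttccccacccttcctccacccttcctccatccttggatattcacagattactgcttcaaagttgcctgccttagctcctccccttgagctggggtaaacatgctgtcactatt
Abcb1b: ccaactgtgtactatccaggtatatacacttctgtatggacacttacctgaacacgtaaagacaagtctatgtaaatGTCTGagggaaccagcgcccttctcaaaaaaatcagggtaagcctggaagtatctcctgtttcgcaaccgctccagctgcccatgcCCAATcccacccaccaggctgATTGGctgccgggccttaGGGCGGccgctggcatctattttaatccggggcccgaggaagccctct

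The Abcb1b window held 1 CAGAC match (as GTCTG on the printed strand), CCAAT on each strand and 1 GC box 48 bases before the start, with no overlap between them. The Abcb1a window held none of the 5 motifs.

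The next gene of that row, Abcb4, which flips phosphatidylcholine into bile, was at 4.65 to 4.94 in all arrays but control 3 (6.51). It was under the lower quartile in each array other than control 3 and differed by -0.19 ± 0.15. Among the mitochondrial transporters, Abcb10, needed for haem synthesis in red cell precursors, was at 6.59, 6.68 and 6.80 in the controls and at 7.16, 7.13 and 6.79 in the TGF-β1 arrays. TGF-β1 1 and 2 exceeded all controls and TGF-β1 3 did not. Its difference of 0.47 ± 0.14 did not pass (adjusted p = 0.0624, limma). Abcb8, of the mitochondrial inner membrane, was at 8.77, 8.62 and 7.54 against 8.91, 8.59 and 8.16, with a difference of 0.11 ± 0.16, and the porphyrin transporter Abcb6 differed by 0.29 ± 0.17. The lysosomal peptide transporter Abcb9 differed by -0.06 ± 0.15, and the bile salt pump Abcb11 was at 5.54 to 5.60 in all arrays but control 3 (6.90). Abcb5 was under the lower quartile in each array and differed by 0.20 ± 0.15.

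**Figure D3:**
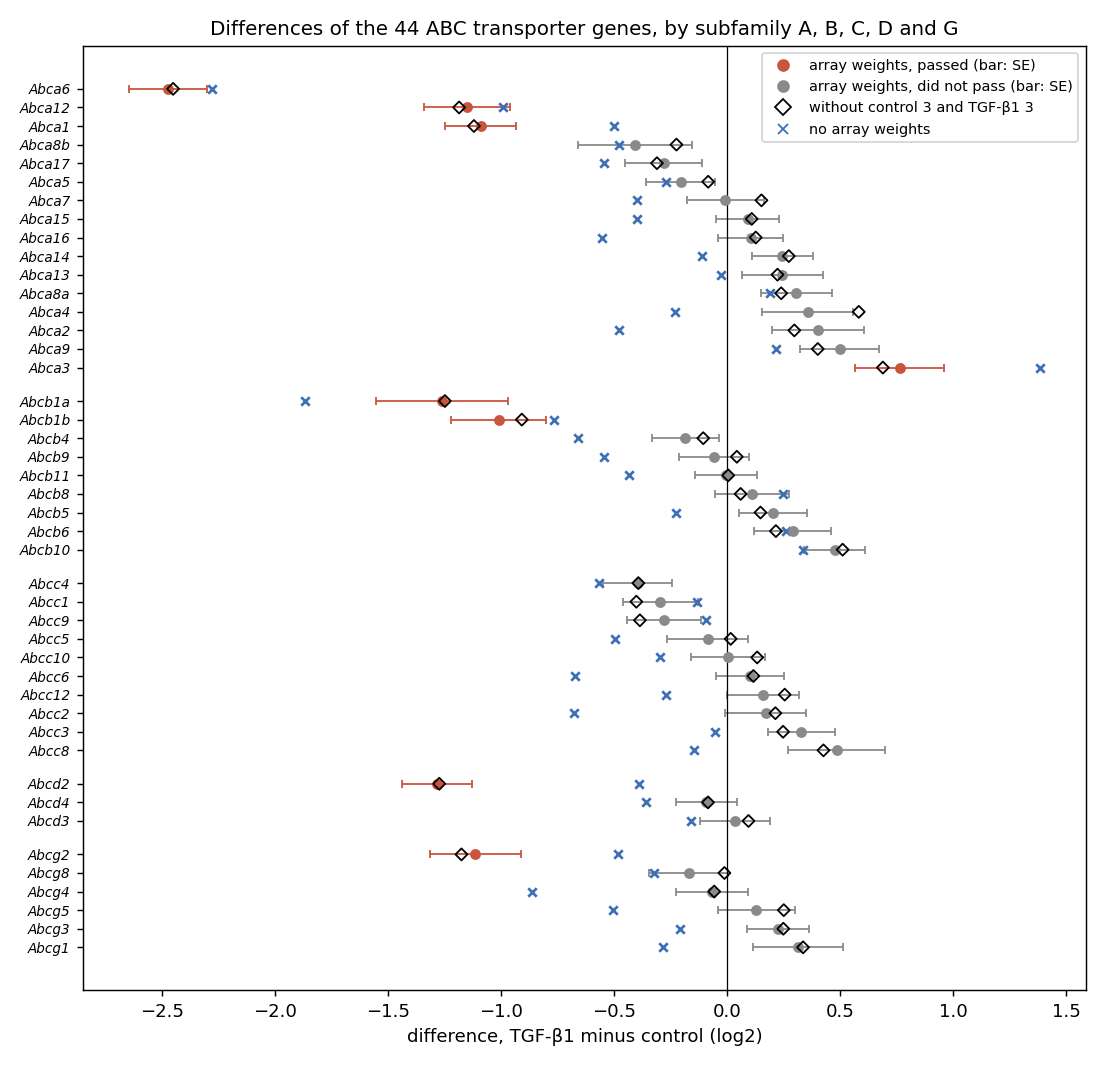
Differences between TGF-β1 and control glands (horizontal axis, log2) for the 44 genes (vertical axis), ordered within subfamilies A, B, C, D and G; circles with SE bars are the array-weighted fit, diamonds the fit without control 3 and TGF-β1 3, and crosses the fit with equal weights. Circles and diamonds lie close together, from -2.47 to 0.76 and from -2.45 to 0.69, while 38 of the 44 crosses lie below 0. The weights of control 3 and TGF-β1 3 were low (0.0338 and 0.398), so circles and diamonds rest largely on the same arrays.

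None of the 10 subfamily C genes passed, and their differences ran from -0.40 to 0.49 with a median of 0.05 (-0.28 with equal weights). At an unadjusted p under 0.05 there were 3. Abcc4, which exports cyclic nucleotides and prostaglandins, was at 7.36, 7.18 and 7.04 in the controls and at 6.87, 6.88 and 6.12 in the TGF-β1 arrays. The groups did not overlap, and the weighted difference was -0.40 ± 0.15 (adjusted p = 0.164, limma). Abcc1, an exporter of glutathione conjugates and leukotriene C4, was at 7.55, 7.47 and 6.99 against 7.35, 6.87 and 7.39, a difference of -0.30 ± 0.17. The groups overlapped through control 3. Abcc5, another exporter of organic anions, was at 8.26, 8.28 and 9.63 against 7.995, 8.57 and 8.11, and Abcc10, a drug exporter, at 7.51, 7.89 and 8.27 against 7.84, 7.82 and 7.11. Their differences were -0.09 ± 0.18 and 0.00 ± 0.16. The groups overlapped for both.

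The sulfonylurea receptors Abcc8 and Abcc9 do not transport a substrate but gate potassium channels. Abcc8 was at 5.55, 5.71 and 7.26 in the controls and at 6.45, 5.66 and 5.96 in the TGF-β1 arrays, and differed by 0.49 ± 0.21 (adjusted p = 0.228, limma). Abcc9 was at 7.46, 7.39 and 6.99 against 7.26, 6.81 and 7.48, and differed by -0.28 ± 0.16. Values of both genes overlapped between the groups. Their channel pores did not pass either: Kcnj11 differed by 0.31 ± 0.15 and Kcnj8 by 0.04 ± 0.15. Of the hepatic-type exporters, Abcc2 differed by 0.17 ± 0.18 and Abcc3 by 0.33 ± 0.15 (adjusted p = 0.241, limma). Abcc12, under the lower quartile in each array, differed by 0.16 ± 0.16. Abcc6, whose loss causes pseudoxanthoma elasticum, differed by 0.10 ± 0.15.

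In subfamily D, 1 of 3 genes passed. Abcd2 (Entrez gene 26874) imports very long-chain and unsaturated fatty acyl-CoA into peroxisomes for β-oxidation. It was at 8.16, 8.32 and 5.88 in the controls and at 6.95, 6.97 and 7.26 in the TGF-β1 arrays. The TGF-β1 arrays lay below controls 1 and 2 by about 1 log2 unit and above control 3. It fell by 1.28 ± 0.15 with array weights (adjusted p by limma 8.81e-04) and by 1.27 ± 0.15 without control 3 and TGF-β1 3 (adjusted p by limma 0.0163); equal weights gave -0.39, and the weighted difference was -0.12 without control 1 and -0.0454 without control 2. Abcd3, a peroxisomal importer of branched-chain and bile acid precursors, was at 6.15, 6.10 and 6.20 against 6.10, 6.34 and 5.53 and differed by 0.03 ± 0.15. Abcd4, which serves the export of vitamin B12 from lysosomes, was at 6.72, 6.68 and 7.31 against 6.61, 6.62 and 6.39. Its groups did not overlap, but the weighted difference was -0.09 ± 0.13.

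In subfamily G, 1 of 6 genes passed, and the median difference was 0.03 (-0.41 with equal weights). Abcg2 (Entrez gene 26357), the breast cancer resistance protein, expels drugs and urate and marks dye-excluding cells in many tissues. It was at 7.79, 8.10 and 6.73 in the controls and at 7.05, 6.49 and 7.62 in the TGF-β1 arrays. TGF-β1 3 came close to control 1, and control 3 lay among the TGF-β1 arrays. Abcg2 fell by 1.11 ± 0.20 (adjusted p by limma 0.00695) and by 1.18 ± 0.22 without control 3 and TGF-β1 3 (adjusted p by limma 0.0442). Equal weights gave -0.49, and the weighted difference was -0.52 without control 1, -0.37 without control 2, -0.72 without TGF-β1 1 and -0.44 without TGF-β1 2. In the fits without TGF-β1 1 or TGF-β1 2 the controls rested mostly on control 1. Abcg1, which passes cholesterol to lipoprotein particles downstream of Abca1, was at 7.07, 6.66 and 8.11 against 6.93, 7.47 and 6.59 and differed by 0.31 ± 0.20 (adjusted p = 0.430, limma). The groups overlapped in both directions. Abcg5 and Abcg8, adjacent genes whose products pair to excrete sterols, differed by 0.13 ± 0.17 and -0.17 ± 0.18, and Abcg4 by -0.07 ± 0.16. Abcg3 differed by 0.22 ± 0.14. Values of Abcg3 and Abcg8 were under the lower quartile in each array other than control 3.

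Over all 6 arrays 5 members had groups that did not overlap, and all 5 were lower in TGF-β1 glands: Abca6, Abca12, Abcb1b, Abcc4 and Abcd4. Over all genes 11.6% did not overlap, 5.78% as lower and 5.80% as higher. Control 3 was the highest array for 29 of the 44 members, and such a gene cannot lie apart as higher. Without control 3, 8 members lay apart as higher and 9 as lower (2499 and 2407 of 19505 genes). Without control 3 and TGF-β1 3, 13 lay apart as higher and 11 as lower (4757 and 4484 of all genes). TGF-β1 3 bore on the size of several differences. Its value lay nearer to the mean of controls 1 and 2 than to that of TGF-β1 1 and 2 for 4 of the 8 called genes: Abca3, Abcb1a, Abcb1b and Abcg2. Without control 3 and with equal weights on the other 5 arrays, 0 members passed in limma, 5 had an unadjusted p under 0.05, and the differences were -2.79 for Abca6, -1.18 for Abcd2, -1.10 for Abca1, -1.04 for Abca12 and -0.89 for Abcg2.

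**Figure D4:**
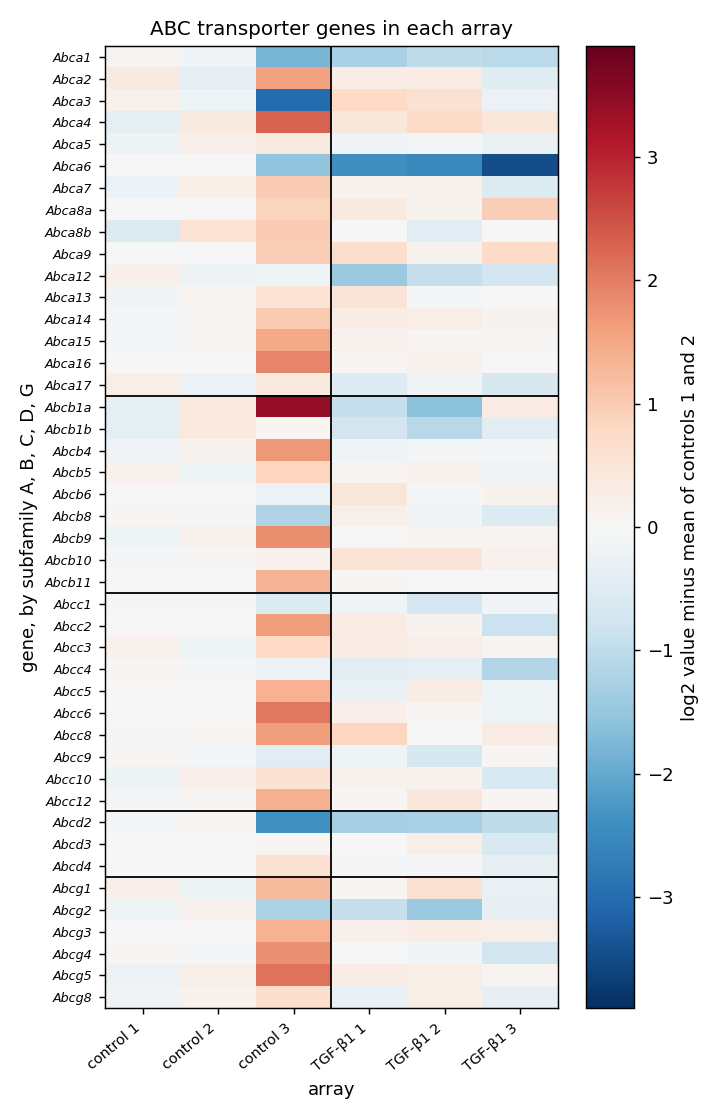
Log2 value of each gene (rows, by subfamily) in each array (columns) minus the mean of controls 1 and 2. Control 3 is the highest array for 29 of 44 genes, and the 3 TGF-β1 columns are all below 0 for Abca1, Abca6, Abca12, Abcd2 and Abcg2, among others.

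Genes that work with these transporters were counted from lists. With array weights 6.88% of all genes passed, 3.45% as higher and 3.44% as lower. No list was tested against all genes. The 7 other ABC superfamily genes listed (Cftr, Tap1, Tap2, Abce1, Abcf1, Abcf2 and Abcf3) gave 0 calls, with a median difference of -0.10. Cftr, the chloride channel of epithelia, was at 5.97, 5.48 and 5.62 in the controls and at 5.57, 5.38 and 6.04 in the TGF-β1 arrays. Tap1, an importer of peptides for antigen presentation, had the smallest p (-0.54 ± 0.16, adjusted p = 0.0676, limma). Of 21 genes of cholesterol and lipoprotein handling, 0 rose, 2 fell (9.52%) and 19 did not pass, with a median of -0.18. Cd36, a fatty acid and lipoprotein receptor, fell by 1.79 ± 0.23, and Ch25h, which makes hydroxylated cholesterol, fell by 1.43 ± 0.19. Both also passed without control 3 and TGF-β1 3, where 2.59% of all genes did. Of 15 nuclear receptors and other regulators of transporter genes 0 passed, with a median of -0.14. Nr1h3, the sterol sensor LXRα, which induces Abca1 and Abcg1, differed by -0.48 ± 0.18 (adjusted p = 0.146, limma).

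Of 23 glutathione and conjugation genes, 1 rose and 1 fell (median 0.09): Gsta3, a glutathione transferase, rose by 1.41 ± 0.19, and Ugdh, which makes UDP-glucuronate, fell by 1.01 ± 0.20. Of 20 solute carriers for drugs and organic ions, 3 rose and 0 fell (median 0.07). Slc15a2, a peptide transporter, rose by 2.15 ± 0.29, Slco1a5, an uptake carrier of organic anions, by 1.80 ± 0.25, and the nucleoside transporter Slc29a1 by 0.64 ± 0.14. Of 23 peroxisome genes, 1 rose and 0 fell (median 0.02), namely Phyh, an enzyme of phytanic acid breakdown, by 1.15 ± 0.21. Of 20 haem and iron-sulfur genes, 1 rose and 1 fell (median 0.09). Slc25a37, the mitochondrial iron importer, rose by 0.87 ± 0.22, and Hmox1, which breaks haem down, fell by 1.41 ± 0.26. Of 13 barrier lipid genes, 1 rose and 2 fell (median -0.08). Ugcg, which makes the glucosylceramide that Abca12 carries, fell by 1.73 ± 0.33, and Elovl4, an elongase of very long fatty acids, by 1.08 ± 0.18, while Elovl7, another elongase, rose by 0.99 ± 0.24. Of the genes named in this paragraph, Ugdh and Ugcg also passed without control 3 and TGF-β1 3.

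Markers of some cell types differed between the groups, with the largest share of calls among acinar markers. Over all genes 6.88% passed. The glands carried epithelial markers, with a median level of the 16 gland epithelium genes of 9.77, 9.24 and 7.56 in controls 1 to 3 and of 9.83 to 10.44 after TGF-β1; 6 of the 16 rose. Of 13 acinar and secretory markers 11 rose and 0 fell, and their median level was 7.61, 5.77 and 6.41 in controls 1 to 3 and 9.33 to 10.19 after TGF-β1. Of 17 mesenchymal and fibroblast markers 4 fell and 0 rose, with median levels of 8.59, 8.92 and 7.14 in controls 1 to 3 and of 8.14 to 8.27 after TGF-β1. Of 11 endothelial markers 1 fell (Kdr), of 10 pericyte markers 1 rose (Notch3) and 1 fell (Mcam), and of 8 myoepithelial markers 2 rose. Of 10 neuron and glia markers 4 rose, of 9 cartilage markers 2 rose and of 6 erythroid markers 1 fell. None of 12 macrophage and leukocyte, 8 adipocyte, 11 skeletal muscle and 10 squamous keratinocyte markers passed. Without control 3 and TGF-β1 3 these counts were smaller for most lists. Acinar markers gave 10 higher, gland epithelium 3 higher, mesenchymal markers 2 lower, cartilage 1 higher, and neuron and glia and erythroid 0. Of the myoepithelial markers 0 passed as higher and 1 as lower (Krt17, -2.21), while the pericyte and endothelial calls were the same in number. With array weights the lowest myoepithelial difference was -1.70 and did not pass. The part of these shifts in the values of the ABC transporters was not tested. In whole glands, fewer cells of a type and less RNA per cell cannot be told apart.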

How the data were processed

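The data were 6 arrays of embryonic mouse salivary glands, 3 per group. The deposited log2 values per probe set were made by the authors with RMA, per the submitters' processing notes, with no version or genome build named. Of 22206 probe sets, 19572 had 1 gene symbol in the platform annotation, 0 had several and 2634 were unnamed here. The probe set with the highest mean stood for a gene, which gave 19505 genes. Values were used with no filter and no further scaling.

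The comparison of the groups used lmFit, arrayWeights (REML) and eBayes, two-sided, of limma 3.58.1 under R 4.3.3. The estimation of the weights stopped before its convergence tolerance, and weights are then taken as known, so p-values are smaller than they should be. Members, gene lists, the weighted fit and the rule for named genes were chosen with earlier results of these data known. That rule took members that passed, the 2 with the highest mean and the 2 with the largest difference per subfamily, and fixed symbols; other members were added to account for all. Of the pathway lists it named up to 3 genes per direction that passed, or that of smallest p. Some fixed symbols are not reported here. The number of arrays limits the precision. Same-numbered samples were checked for pairing: the correlations of their deviations from the group means were -0.0662, -0.00780 and -0.0501. The control mean includes control 3, whose outlying values enter each control deviation, so this check cannot decide whether samples were paired. The main fit did not treat the numbers as pairs. Alternatives were other weights, left-out arrays, other scalings, a filter on dim genes, other treatment of probe sets, another prior, the replicate block and other thresholds. Background correction was not varied, since scanner files were not used here.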

Additional observations from a re-analysis of the deposited data

How the results depend on the processing

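Counts are given as higher and lower ABC transporters, then higher and lower genes of all tested; with array weights they were 1 and 7, then 672 and 670. No array weights gave 0 and 0, then 0 and 0, as did leaving out control 3 without weights and the replicate block without weights. Weights gene by gene gave 0 and 5, then 442 and 432. Leaving out control 3 and TGF-β1 3 without weights gave 0 and 5, then 223 and 282. Quantile normalization gave 0 and 5, then 241 and 245, and median centring 0 and 4, then 132 and 151. Without the dimmest genes (13004 kept) they were 6 and 7, then 2169 and 2185, with the controls weighted mostly on control 2. Every probe set tested one by one gave 0 and 5, then 263 and 261. The replicate block with weights gave 1 and 7, then 1221 and 1281. An adjusted p under 0.01 gave 0 and 5, then 262 and 276, and under 0.1 2 and 7, then 1031 and 1096. Leaving out 1 replicate at a time gave 0 to 0 higher and 0 to 4 lower members, and 0 to 245 higher and 0 to 299 lower genes. The cause of these shifts was not tested.

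Of the 8 genes that passed, Abca1, Abca6 and Abcd2 passed in 11 of 18 alternatives, Abca12 in 10 of 17, Abcg2 in 8, Abca3 and Abcb1b in 4 and Abcb1a in 3. For all but Abca12, these alternatives include the fit without the dimmest genes, where control 2 carried most of the controls' weight. Over these alternatives the adjusted p (limma) ran from 7.90e-16 to 0.979 for Abca6 and from 4.22e-08 to 0.993 for Abcb1a. Each member had 1 probe set, so the mean of probe sets left its values as in the main fit, with nearly the same weights. The trended and robust prior kept both values and weights. A pass in either therefore adds little to the main fit. Testing every probe set one by one also kept the members' values, though the weights changed. None of the 8 passed without control 1, control 2, TGF-β1 1 or TGF-β1 2. In those fits control 3 or TGF-β1 3 weighed as much as the other array left in its group. Without TGF-β1 1 or TGF-β1 2, the controls also rested mostly on control 1. Genes that did not pass changed sign under some settings, as log2 differences. Abcb8 gave -0.14 without control 3 and weights. Abcb9 gave 0.0134 with weights gene by gene, 0.06 without control 3 and weights, 0.0424 without control 3 and TGF-β1 3, 0.0073 with quantile normalization, 0.0788 with median centring and 0.0218 with every probe set. Abcc5 gave 0.02 without control 3 and TGF-β1 3 and 0.11 with the replicate block and weights. Abcc8 gave -0.15 without weights, with or without the block. Abcc10 gave -0.30 without weights, with or without the block, -0.11 without control 3 and weights, -0.0589 without the dimmest genes and -0.0012 with the mean of probe sets. Abcg1 gave -0.28 without weights, with or without the block. With 1 replicate left out at a time the ranges were -2.97 to 0.015 for Abcb1a, -0.37 to 0.68 for Abcb8, -0.96 to 0.23 for Abcb9, -0.76 to 0.0614 for Abcc5, -0.33 to 0.63 for Abcc8, -0.29 to 0.31 for Abcc10 and -0.50 to 0.22 for Abcg1. The 12 members under the lower quartile in the 5 arrays other than control 3 may be too dim for a difference to show. They were Abca5, Abca13, Abca14, Abca15, Abca16, Abca17, Abcb4, Abcb5, Abcc2, Abcc12, Abcg3 and Abcg8.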
